A study of Drosophila melanogaster with 4 samples.

Results

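The regions described here lie at 2 places in the genome of Drosophila melanogaster, the loci of homothorax (hth) and teashirt (tsh). The rule took every region that overlapped 3R from 6280000 to 6540000, the locus of hth, or 2L from 21700000 to 21980000, the locus of tsh, on FlyBase release 5. It found 9 of the 5434 regions of replicate 1, 9 of the 4523 regions of replicate 2 and 16 of the 8051 regions of a further list called on the set of replicates (the set list). The loci were chosen by the length of the domains that both replicates share there, so lengths are given as a description and carry no test. The files name no genes, and the only gene table used here is of release 6. The names hth and tsh therefore come from the rule, and their match to these positions was not checked.

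Chromatin came from whole wild-type embryos of the Oregon-R strain (Oregon-R-modENCODE), aged 14 to 16 hours, when organs differentiate. The series holds 2 samples immunoprecipitated with an antibody against H3K36me1, which is histone H3 carrying a single methyl group on lysine 36, and 2 input samples of the same strain, stage and genotype that served as background, for which no values were used. A region is a stretch listed as enriched over input, and its score is a number that the authors gave it on a scale that is not stated. Scores are therefore ranked within a list and never compared between lists. A whole embryo mixes all its cell types, so a strong mark in few cells and a weak mark in many cannot be told apart. How many reads lie behind a region is unknown, so counting error could not be given.

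The hth gene encodes a homeodomain protein of the TALE class, the fly counterpart of the vertebrate Meis proteins. It binds Extradenticle (the product of exd), brings it into the nucleus, and together they act as partners of the Hox proteins on DNA. The tsh gene encodes a zinc finger protein that works with Hox proteins to give the trunk its identity, and with Hth in the proximal parts of appendages and in the eye. Its paralog is tiptop (tio). Both hth and tsh are known targets of Polycomb repression in flies, and the higher methylation states of H3 lysine 36 are known to inhibit the Polycomb methyltransferase that acts on lysine 27. In the release 6 gene table the protein-coding genes nearest to hth on 3R are, in order, CG6345, CG46270 and Cyp12e1 on one side and CG6465, Phyhd1 and Skel on the other. Those nearest to tsh on 2L are CG1416, CG31612 and CG11630 on one side and CG11629, CG1421 and CG1428 on the other. Whether any of these genes lies under a region was not tested, for want of an annotation of the files' release.

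At hth, H3K36me1 formed 1 unbroken domain in each list, the longest region in all 3. In replicate 1 it ran on 3R from 6331465 to 6499693, a length of 168.2 kb. In replicate 2 it ran from 6328312 to 6499119, a length of 170.8 kb. In the set list it ran from 6325209 to 6500603, a length of 175.4 kb. The domain made up 3.14% of all enriched sequence on 3R in replicate 1, 3.68% in replicate 2 and 2.46% in the set list.

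The replicates shared 167.7 kb of this domain, which was 97.8% of the length that they covered together. Its right end was placed 574 bp apart in the replicates. Its left end was placed 3153 bp apart, so the left end was the less exactly placed of the 2. Part of that distance was a difference in how the edge was split. Replicate 1 listed a separate region of 1.61 kb, from 6329204 to 6330812, that stopped 652 bp short of its domain, and the domain of replicate 2 covered the same stretch without a break.

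Little other sequence was marked around hth. In replicate 1 the regions besides the domain were 3 in number, 1.61 to 2.64 kb long, and in replicate 2 there was 1, of 2.93 kb. The region to the right of the domain was present in every list. It ran from 6503506 to 6506148 in replicate 1, from 6503763 to 6506691 in replicate 2 and from 6503363 to 6506356 in the set list, after gaps of 3812, 4643 and 2759 bp. Beyond it, replicate 1 held a region from 6522587 to 6524945 and the set list one from 6522281 to 6524904, and replicate 2 held none. The set list alone had 3 more short regions there, of 1.07 to 1.45 kb. To the left, the nearest region lay 105.4 kb before the fragment at 6329204 in replicate 1, and 94.8 kb before the domain in replicate 2. In the set list a region of 1.08 kb, from 6318001 to 6319081, lay 6127 bp to the left of the domain, and the next lay 75.7 kb further off.

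The score of the hth domain was high in its list, while those of its flanking regions lay below the list median in the replicates. The domain scored 1.76 in replicate 1, rank 31 of 5434. It scored 1.84 in replicate 2, rank 27 of 4523, and 1.77 in the set list, rank 49 of 8051. The flanking regions scored 0.529 to 0.596 in replicate 1 and 0.666 in replicate 2, and the medians of those lists were 0.613 and 0.714. All of these flanking regions of the replicates thus scored below the median of their list. Longer regions scored higher, with medians of 1.05 in replicate 1 and 1.12 in replicate 2 at 10 to 20 kb. The contrast between the domain and its short flanking regions was not matched for length. The 6 flanking regions of the set list scored 0.219 to 0.573, around the list median of 0.463, and 3 of them scored above it, at 0.466, 0.512 and 0.573.

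At tsh, a domain of similar form stood in a row of smaller regions. In replicate 1 it ran on 2L from 21773041 to 21909974, a length of 136.9 kb. In replicate 2 it ran from 21773983 to 21910719, a length of 136.7 kb. The set list gave 140.8 kb, from 21772804 to 21913586. The domain was second in length in each list and lay 1.10 Mb from the end of 2L that the release 5 sequence reaches near the centromere. It made up 3.20% of the enriched sequence of 2L in replicate 1, 3.65% in replicate 2 and 2.41% in the set list.

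The replicates shared 136.0 kb of the tsh domain, or 98.8% of the length that they covered together. The left ends lay 942 bp apart and the right ends 745 bp apart, so both ends were placed to within 1 kb. To the right, each replicate listed a short region just past the domain. It ran from 21911335 to 21913584 in replicate 1, after a gap of 1360 bp, and from 21911365 to 21913155 in replicate 2, after a gap of 645 bp. The set list had no break here, and its domain ended within 2 bp of the end of the short region of replicate 1.

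A compact, strongly scored region stood to the left of the tsh domain. It ran from 21742844 to 21757704 in replicate 1, 14.9 kb long, and from 21743023 to 21757584 in replicate 2, 14.6 kb long. It scored 1.57 in replicate 1 and 1.48 in replicate 2, where the domain itself scored 1.32 and 1.41. In the set list it was 15.2 kb long and scored 1.50, against 1.32 for the domain. The smaller region thus outscored its long neighbour in all 3 lists. Among regions of 10 to 20 kb it ranked 24 of 305 in replicate 1, 35 of 261 in replicate 2 and 25 of 365 in the set list.

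Weaker regions lay between the compact region and the tsh domain. Replicate 1 listed 1, of 4.26 kb from 21762244, with a score of 0.755. Replicate 2 listed one of 4.15 kb from 21762022 and one of 3.54 kb from 21768529, with scores of 0.685 and 0.759. The set list held a single region of 10.1 kb from 21761981 to 21772051 in their place, with a score of 0.560, and it ended 752 bp before the domain. To the right of the short region past the domain, replicate 1 held no region for 58.0 kb and replicate 2 none for 34.4 kb. Regions further on were 1.32 to 2.74 kb long in the replicates and scored 0.481 to 0.643.

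**Figure D1:**
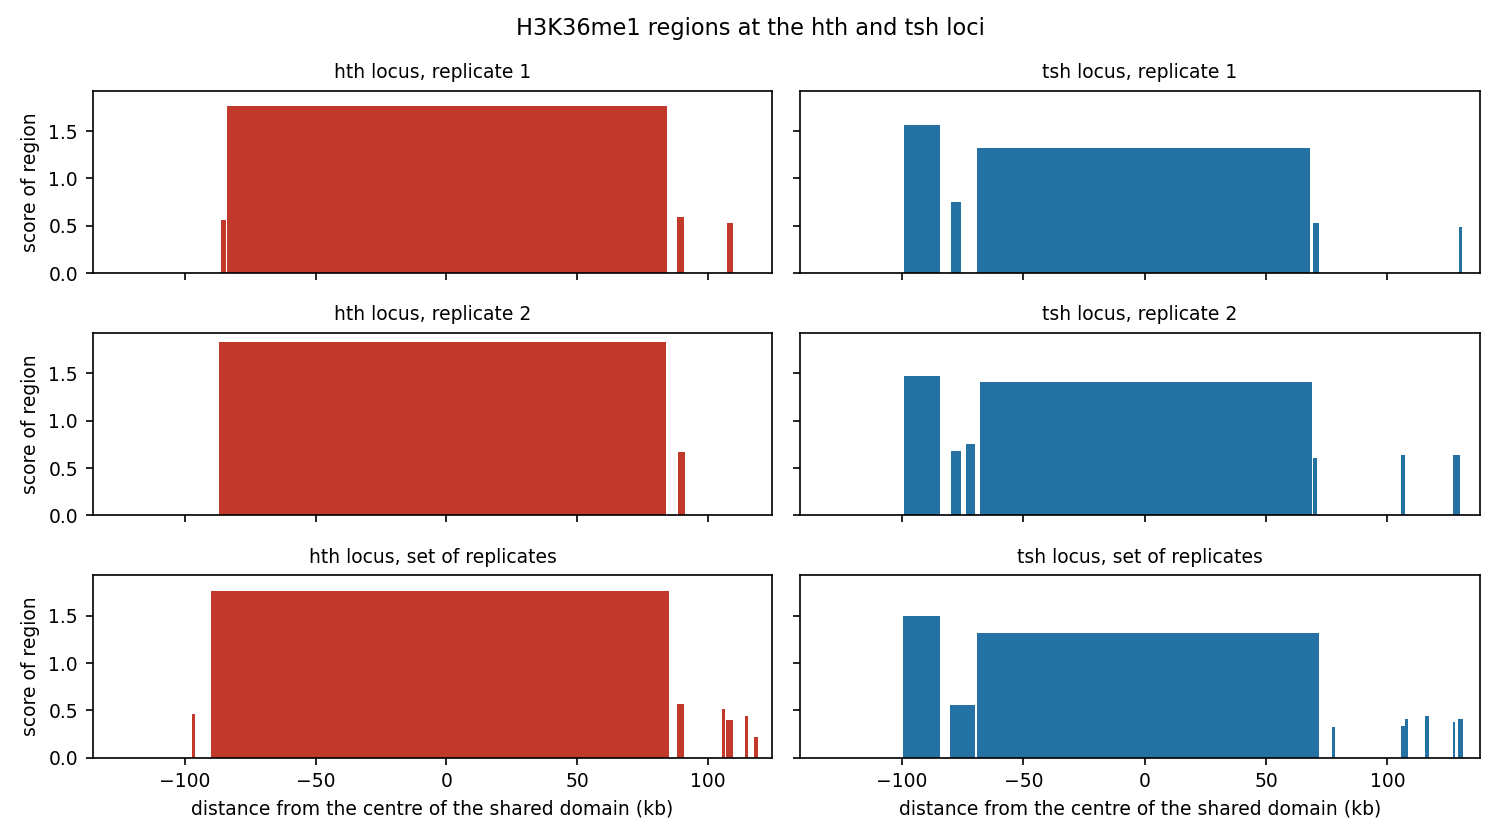
Regions of the 3 lists at the hth locus (left, red) and the tsh locus (right, blue), drawn to scale against the distance in kb from the centre of the shared domain, with the height of a bar giving the region's score in its own list. A single block fills most of the hth locus in each list, and a block of 14.6 to 15.2 kb with a higher score than the domain stands to the left at tsh. Heights are not comparable between lists.

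More of the sequence outside the domain was marked at tsh than at hth. Regions covered 67.2% of the window of 260 kb at hth in replicate 1 and 66.8% in replicate 2, beside 19.2% and 16.6% of the whole of 3R. They covered 57.0% and 59.1% of the window of 280 kb at tsh, beside 18.6% and 16.3% of the whole of 2L. These windows were drawn around the domains, so the shares are high by choice. Without the domains, the covered share was 7.20% in replicate 1 and 3.28% in replicate 2 at hth. At tsh it was 15.9% and 20.0%. In replicate 1, 3 of 4 regions at hth and 5 of 5 at tsh overlapped a region of replicate 2, and in replicate 2 it was 2 of 2 and 5 of 7 that overlapped a region of replicate 1. In the set list 3 of 7 regions at hth and 7 of 9 at tsh overlapped a region of either replicate. These counts include the domains, which were chosen because both replicates share them. The share of all regions of a list that overlap was not counted, so the counts are not read as a trait of these loci.

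The domains were set beside the other regions of at least 50 kb, of which there were 13 in replicate 1, 10 in replicate 2 and 27 in the set list. At this limit the shortest region kept measured 51.8 kb in replicate 1, 54.6 kb in replicate 2 and 50.5 kb in the set list, and the longest left out measured 49.8, 44.5 and 49.8 kb. Next in length after tsh came a region on 3R from 2738177. In replicate 1 the tsh domain measured 136.9 kb and this region 134.9 kb. In replicate 2 the tsh domain measured 136.7 kb and this region 107.7 kb. There a gap of 173 bp cut the region from the next. With gaps under 1000 bp joined in replicate 2, its run measured 134.8 kb from 2 regions and that at tsh 139.2 kb. As listed, the hth domain was longer than the region on 3R by 33.3 kb in replicate 1, 63.1 kb in replicate 2 and 40.3 kb in the set list. The value of replicate 2 thus depends on that short gap.

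By score, hth stood near the top of these long regions and tsh near or below their median in both replicates. The hth domain ranked 2 of 15 in replicate 1, 2 of 12 in replicate 2 and 2 of 29 in the set list. The region above it was the same in all lists, a region of 61.2 to 61.8 kb on 3R that began at 25078308 in replicate 1 and scored 2.16 there, 2.10 in replicate 2 and 2.12 in the set list. The tsh domain ranked 9 of 15, 9 of 12 and 10 of 29. In the whole lists it ranked 179 of 5434, 151 of 4523 and 184 of 8051, so it was middling only among long regions. Its score of 1.32 in replicate 1 lay between the 1.33 of the region from 2738177 on 3R and the 1.32 of a region of 92.3 kb from 12490772 on 3R. The median score of the other long regions was 1.33 in replicate 1, 1.49 in replicate 2 and 1.23 in the set list. The tsh domain was therefore just below that median in replicate 1, below it in replicate 2 and above it in the set list. The hth domain scored higher than the tsh domain by 0.44, 0.43 and 0.45 in the 3 lists, in the units of each list. Across the long regions the Spearman correlation of length with score was 0.518 in replicate 1 (n = 15), 0.0699 in replicate 2 (n = 12) and 0.539 in the set list (n = 29). These regions share a library within a list, and no p-value is attached.

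**Figure D2:**
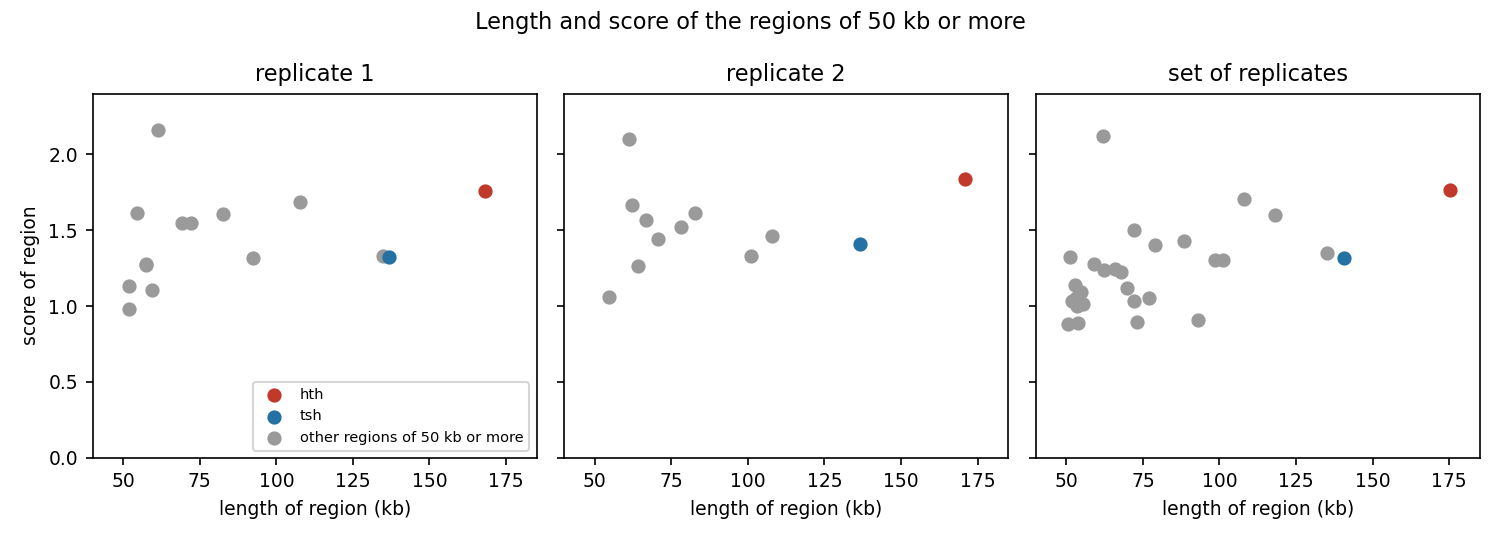
Length in kb against score for every region of 50 kb or more in each list, with hth in red, tsh in blue and the others in grey. The hth domain is the rightmost point and second in score in each panel. The tsh domain, at 1.32, 1.41 and 1.32, lies near or below the median score of the others in the replicates and above it in the set list.

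The placing of edges was compared over the 12 pairs of regions of 50 kb or more that overlapped in the replicates, which took in all 12 such regions of replicate 2. In replicate 1, 3 of 15 such regions had no partner of 50 kb or more and were left out. Regions of replicate 2 covered 92.6% to 98.6% of the length of each. The mean shift of both ends was 1864 bp at hth and 844 bp at tsh, against a median of 4706 bp in the 10 other pairs, whose shifts ran from 310 to 18829 bp. The 2 ends differed in this. Left ends lay 3153 bp apart at hth and 942 bp at tsh, both above the median of 761 bp in the other pairs. Right ends lay 574 and 745 bp apart, below the median of 4610.5 bp. At both loci the mean shift was smaller than in 8 of the 10 other pairs. Both loci were chosen by the length that the replicates share, which a large shift shortens. Their small mean shifts are therefore in part by choice. Some large shifts lay where 1 replicate split a region at a short gap. The right ends of the pair on 3R from 2738278 lay 27091 bp apart, and replicate 2 had a gap of 173 bp there. With regions under 1000 bp apart merged, which can also change which pairs reach 50 kb, the share with a larger shift fell. It was 61.9% for hth and 57.1% for tsh, against 80% as listed. The shared part was 97.8% of the combined length at hth and 98.8% at tsh, against a median of 87.3% and a range of 65.1% to 99.0% in the others. With shorter regions taken in, the order of the shifts changed. Among 50 other pairs of at least 30 kb the median shift was 697 bp, and 19 had a larger shift than hth and 24 a larger shift than tsh. That median shift was smaller than the shift at either locus. The median shared part of these 50 pairs was 96.0%. For a given shift the shared part rises with length. Both loci were chosen by length, so their higher shared parts are in part by choice. A smaller part than at hth was shared in 27 of them, and a smaller part than at tsh in 35.

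The hth domain had the emptiest flanks of all long regions in both replicates. Of the 50 kb to its left, 3.22% was covered in replicate 1 and 0% in replicate 2. Of the 50 kb to its right, 10.0% and 5.86% was covered. The mean over both flanks was 6.61% in replicate 1 and 2.93% in replicate 2, against medians of 34.9% and 34.2% in the other long regions. The lowest of the others had 15.1% in replicate 1 and 12.7% in replicate 2, so hth did not overlap them as listed. Pieces split from a long region at a short gap count as covered flank. The region on 3R from 2738278 in replicate 2, for example, had 57.9% covered to its right, after a gap of 173 bp. Flanks were not measured with regions joined. In the set list, hth had 10.3% and the lowest other region, on X, also had 10.3%, so hth ranked second by a small margin. Other long regions had 1 empty flank and a marked one. A region on X from 3237279 in replicate 1, with 0% to the left and 69.8% to the right, is an example.

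The tsh flanks were uneven. Of the 50 kb to the left of the domain, which hold the compact region, 38.3% was covered in replicate 1 and 44.5% in replicate 2. Of the 50 kb to the right, 4.50% and 7.26% was covered. The mean of 21.4% in replicate 1 and 25.9% in replicate 2 ranked 4 of 15 and 6 of 12 from the lowest, within the range of the others. Distance to the nearest region did not set hth apart on its right side, where the gap of 3812 bp in replicate 1 and of 4643 bp in replicate 2 led to a single short region and then to 16.4 kb and 107.3 kb without one.

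**Figure D3:**
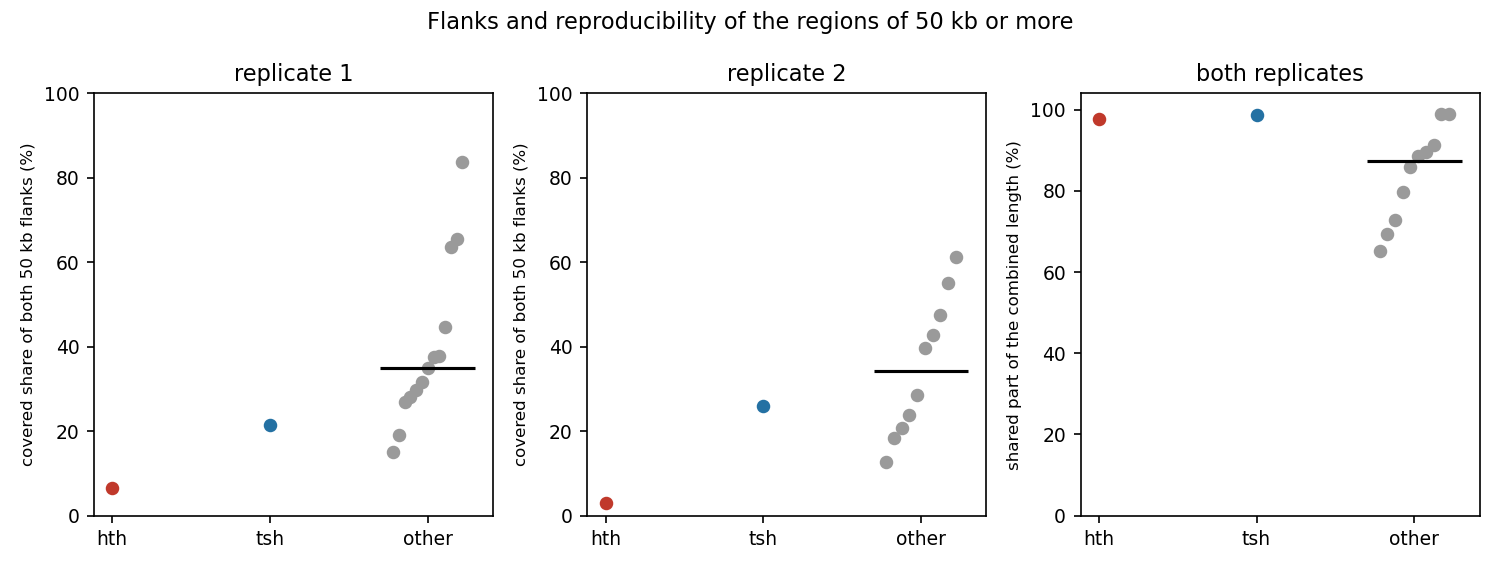
Left and middle, the percentage of the 50 kb on both sides that was covered by other regions, for hth, tsh and each other region of 50 kb or more in replicates 1 and 2. Right, the percentage of the combined length that was shared by the replicates. Horizontal lines are medians of the other regions, at 34.9%, 34.2% and 87.3%, and hth has the lowest value in the first 2 panels.

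The place of both loci as the longest domains depended on how regions were divided, a comparison added after the values had been seen. As listed, and with regions joined across gaps under 2000 bp, the run at hth was the longest of each replicate, at 170.5 kb in replicate 1 and 170.8 kb in replicate 2 once joined. With gaps under 5000 bp joined, it grew to 176.9 kb and 178.4 kb and ranked 5 in replicate 1 and 3 in replicate 2. The longest run was then one on 3R from 12475581 to 12742895 in replicate 1, 267.3 kb long, built of 14 regions and covered to 92.8%. In replicate 2 the same place gave 269.0 kb from 17 regions. The joined run at hth held 3 regions in replicate 1 and 2 in replicate 2 and was covered to 97.5% and 97.4%. The run at tsh ranked 3 in replicate 1 and 2 in replicate 2 with gaps under 1000 bp joined, and 4 in both with gaps under 2000 bp. With gaps under 5000 bp it measured 140.5 kb in replicate 1 and 170.1 kb in replicate 2, where it took in the compact region on its left. In the set list, hth was first as listed and second with gaps under 2000 bp joined, at 175.4 kb against 181.3 kb for a run on 3L from 11263494. There it ranked 6 with gaps under 5000 bp joined and tsh ranked 7. The ranks fell furthest with gaps under 10000 bp joined. The run at hth then ranked 8 in replicate 1, 5 in replicate 2 and 16 in the set list, and that at tsh ranked 9, 6 and 22.

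**Figure D4:**
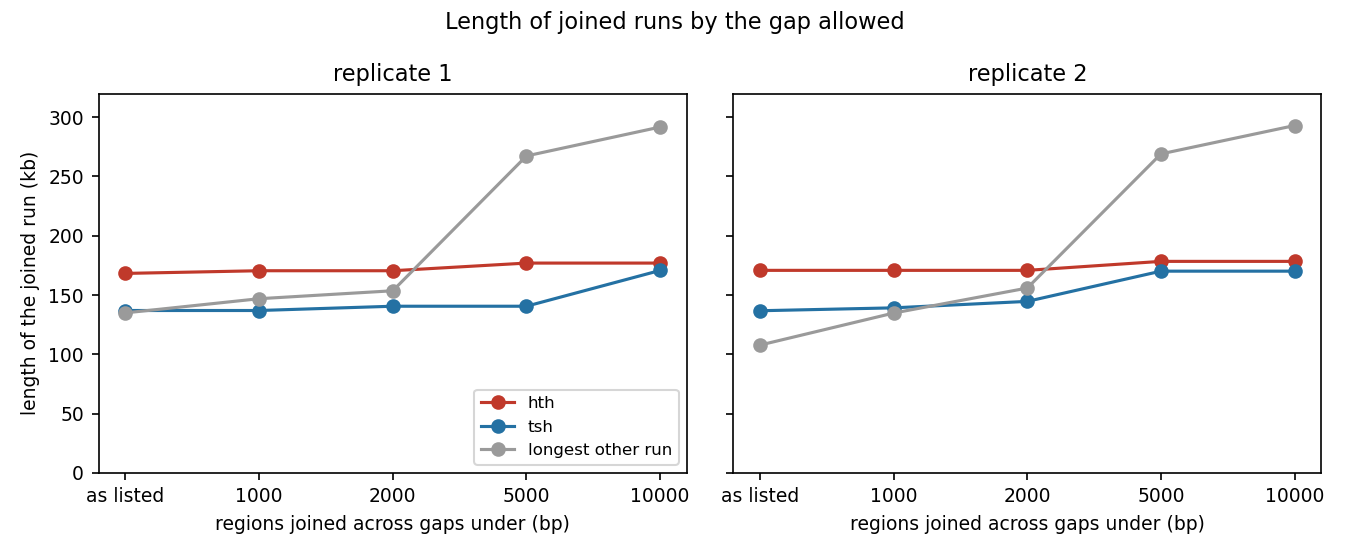
Length in kb of the run of regions at hth (red), at tsh (blue) and of the longest other run (grey) in replicates 1 and 2, as listed and with regions joined across gaps under 1000, 2000, 5000 and 10000 bp. The run at hth changes little, from 168.2 to 176.9 kb in replicate 1, while the longest other run passes it at 5000 bp and reaches 291.7 kb at 10000 bp.

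The set list followed both domains closely and widened them. Of its hth domain, 96.8% lay in regions of replicate 1, 97.4% in regions of replicate 2 and 96.5% in both, and 4013 bp lay in neither. It began 3103 bp to the left of the domain of replicate 2 and 6256 bp to the left of that of replicate 1, and it ended 1484 and 910 bp to the right of them. Of its tsh domain, 98.9% lay in replicate 1, 98.4% in replicate 2 and 97.9% in both, and 854 bp lay in neither. That domain began 1179 bp to the left of the domain of replicate 2 and 237 bp to the left of that of replicate 1. It ended 2867 and 3612 bp to the right of them, since it took in the short region past the domain.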

How the data were processed

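H3K36me1 ChIP-seq region lists of 2 replicates and of the set of replicates were used. The submitters' processing notes name Bowtie 0.12.7, a read aligner, and each replicate was called over its own input, per the labels. Positions are on FlyBase release 5, per the file headers. The value of each region is a score deposited by the authors. The sources used here give neither its scale, nor the region caller and its threshold, nor the depth. The 2 input samples entered as the background of these lists, and no values of theirs were analysed here.

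Regions are counted from 1, both ends included, and gaps are the bases between neighbours. Overlap means at least 1 bp. Ranks were taken within a list. No test was run, since the members were chosen by length and 2 replicates of 1 condition allow none. Nothing in the labels says that the replicates are separate collections of embryos, so their spread may be technical. The members, the windows and the comparisons were chosen with earlier results of these data known. The genes named are the members, their 3 nearest protein-coding neighbours on each side, exd and tio. The regions named are those in either window and the long regions next to them in length or score, except those given as examples for flanks and joined runs, which were chosen after their values were seen. Alternatives are given at the end. The code was tested on simulated lists with known edges. Python 3.11.15, NumPy 2.4.6, pandas 2.3.3, SciPy 1.17.1 and matplotlib 3.10.9 were used.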

Additional observations from a re-analysis of the deposited data

How the results depend on the processing

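Of 58 alternative values, 24 were counted as within the spread between replicates or equal to the value given, and 34 as moved. The 24 include falls from 80% in the share of long pairs with a larger shift of edges. These were to 61.9% for hth, and to 48% and 57.1% for tsh. That share uses both replicates at once and has no spread between them, so these values are not read as unchanged. The shared length at hth, 167.7 kb, was 169.9 kb with regions under 1000 bp apart merged, 176.9 kb with those under 5000 bp apart merged, 171.4 kb for sequence in either replicate and 175.4 kb in the set list. The shared length at tsh, 136.0 kb, was 140.1 kb with merging under 5000 bp, 137.7 kb for either replicate and 140.8 kb in the set list. A single replicate gave 168.2 to 170.8 kb at hth and 136.7 to 136.9 kb at tsh. The share of the hth window in both replicates, 66.0%, came to 64.5% with only the upper 50% of each list by score, 68.0% for either replicate, 71.4% in the set list and 47.7% with 50 kb added on each side. A single replicate gave 66.8% to 67.2%. The share at tsh, 55.9%, was 53.8%, 60.2%, 62.5% and 45.7% in the same settings, and 57.0% to 59.1% in a single replicate. On average over the replicates, 91.9% of the other regions of 50 kb or more scored lower than hth and 35.1% scored lower than tsh. Among regions of 80 kb or more these shares were 100% and 22.5%, and in the set list 96.4% and 67.9%. Among regions of 30 kb or more, 47.7% scored lower than tsh. A single replicate gave 90.9% to 92.9% for hth and 27.3% to 42.9% for tsh. The share of other long pairs with a larger mean shift of edges than hth, 80% at 50 kb, was 38% at 30 kb. It was 61.9% at 50 kb with regions under 1000 bp apart merged. The same share for tsh, also 80%, was 48% and 57.1% in these settings. The length rank of hth was 5 in replicate 1 and 3 in replicate 2 with merging under 5000 bp. That of tsh was 3 in replicate 1 with merging under 1000 bp, 4 in both replicates with merging under 2000 bp, and 7 in replicate 1 and 5 in replicate 2 with merging under 5000 bp. These ranks were added after the data were examined. Merging, joint lists and wider windows change lengths and shares by construction. The cause of the other changes was not tested. No paired analysis was possible because no values of the input samples were analysed here and no test was run. The depth is unknown, so what it limits was not tested.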
